A study of Mus musculus with 2 samples.

Results

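The protein-folding machinery of lung CD4 T cells was examined as a list of 40 genes, all of which have an entry among the 32285 genes of the deposited count matrices. The list holds 26 genes of the endoplasmic reticulum and its stress responses, 12 genes of cytosolic heat shock proteins and their partners, and 2 genes of the mitochondrial matrix. Its members were chosen by name, with earlier results of these data known. Their unique molecular identifiers (UMIs, 1 per captured transcript molecule) were read in cells. Cells were barcodes that held 500 or more UMIs and 250 or more genes, with mitochondrial transcripts making up no more than 10% of the UMIs. With at least 50 UMIs over both libraries, 35 of the 40 members could be compared between hosts, beside 6762 genes in all. The other 5 members, given as UMIs in the MARCH1-/- host library and in the WT host library, were Syvn1 (14 and 20), Trib3 (7 and 7), Hspa1a (6 and 11), Hspa1b (6 and 21) and Bag3 (15 and 23).

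Secreted and membrane proteins fold in the endoplasmic reticulum, where the Hsp70 protein BiP, lectin chaperones and disulfide isomerases act on them as they enter. When unfolded proteins accumulate there, the sensors IRE1, ATF6 and PERK start the unfolded protein response: IRE1 splices the Xbp1 transcript, and PERK signalling favours translation of ATF4. Cytosolic and mitochondrial folding is served by separate Hsp70, Hsp90 and chaperonin systems, part of which is controlled by the heat shock factor HSF1. T cells enlarge both systems when they grow, divide and secrete cytokines.

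The cells came from wild-type donor mice that had inhaled house dust mite extract by oropharyngeal aspiration on day 0 and again from day 7 to day 11. Lung CD4 T cells were enriched from them on day 14, stained with Cell Trace Violet, a dye that is diluted at each division, and given to a MARCH1-/- host or to a WT host (C57BL/6). Both hosts were then challenged with the extract, and 4 days later the donor cells that had lost dye through division were taken from the lung by sorting and sequenced with a 10x 3′ kit. MARCH1 is a ubiquitin ligase of antigen-presenting cells, and in this design it was missing from the host and not from the sequenced T cells; how many mice stood behind each library is not stated in the sources used.

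With 1 library per host there was nothing to test against, and p-values are therefore absent. The MARCH1-/- host library held 156 cells with a median of 8017 UMIs, and the WT host library 352 cells with a median of 6086.5 UMIs; 0 barcodes were shared. Cells were called cycling at 3 or more UMIs of 41 cell cycle genes per 1000 UMIs, and the other cells cytokine-positive at 1 or more UMIs of Il4, Il5 or Il13. By these rules 53 of 156 cells (34.0%) were cycling in the MARCH1-/- host and 84 of 352 (23.9%) in the WT host. Another 34 and 96 were cytokine-positive non-cycling cells, and 69 and 172 were cytokine-negative non-cycling cells. Near the limit, at 1.5 to 6 cell cycle UMIs per 1000, lay 16 cells of the MARCH1-/- host and 61 of the WT host. The CD4 T cell label held: 10 of 10 CD4 T cell markers were detected in both libraries, at 5388 and 4062 UMIs per 1e6 UMIs (CPM) in all in the MARCH1-/- and WT hosts, while Cd8a was at 0 in both and Cd8b1 had 16 and 30 UMIs. Of 8 plasma cell markers, which bear on reticulum genes, Jchain, Mzb1 and Iglc2 were at 0 in both libraries; the summed list stood at 100.3 CPM in the MARCH1-/- host and 23.3 CPM in the WT host, nearly all of it Ighm. Of the B cell markers, Ms4a1 and Pax5 were at 0 in both, and the whole list held 6 UMIs in the MARCH1-/- host and 4 in the WT host. A list of 13 immediate early genes, which respond to tissue dissociation as well as to antigen, summed to 4584 CPM in the MARCH1-/- host and 2657 CPM in the WT host, and its part in the heat shock values was not tested. Of these genes 10 were higher in CPM in the MARCH1-/- host, and Atf3, Egr1 and Ier3 were lower.

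The promoters of the list are shown for the stress elements they hold, because the same genes are followed in the comparisons. Windows from 250 bases before to 50 bases after the transcription start were taken from the RefSeq table (GRCm38.p6), which held 33 of the 40 members and 32851 windows in all. The other 7 members had no window and were not searched. These were Hspa8, Hsp90aa1, Hsp90ab1 and Hsf1 of the cytosolic members, and Hyou1, Manf and Atf6 of the reticulum members. This left 8 cytosolic members with a window. The endoplasmic reticulum stress element, read as CCAAT, then 9 bases of any kind, then CCACG on either strand, is the site through which ATF6 acts together with the CCAAT factor NF-Y. It occurred in 0.119% of all windows and in 8 members, all of them among the 23 reticulum members with a window: Hspa5, Hsp90b1, Calr, Canx, Creld2, Dnajc3, Pdia6 and Syvn1. Its variant, ATTGG and CCACG with 1 base of any kind between them, was found in 0.0365% of windows and in Dnajb11 and Herpud1. The XBP1-type element TGACGTGG, on either strand, occurred in 0.676% of windows and in 0 members. The ATF4-type element TGATGNAA, on either strand, occurred in 3.97% of windows and in Asns, Herpud1 and Trib3. A heat shock element, read as 3 alternating units of GAA and TTC, starting with either, with 2 bases of any kind between units and on either strand, occurred in 0.603% of windows and in Hspd1, Hspe1 and Hsph1. A match is a description of the letters and not of binding. The printed stretches run 5′ to 3′ on the strand of the gene, with the match in capitals; the pair of matches of Hsp90b1 is shown with the bases between them.
Hspa5 (chr2:34772020-34772048, plus strand, 65 bases before the RefSeq start, in a stretch that touches an exon of the gene in GENCODE M21): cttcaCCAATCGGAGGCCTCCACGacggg
Hsp90b1 (chr10:86705513-86705676, minus strand, outside annotated genes): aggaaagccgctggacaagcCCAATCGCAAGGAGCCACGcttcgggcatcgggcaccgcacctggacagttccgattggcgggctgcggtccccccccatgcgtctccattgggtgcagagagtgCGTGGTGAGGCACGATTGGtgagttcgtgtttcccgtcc
Canx (chr11:50325780-50325838, minus strand, 145 bases before the start, outside annotated genes): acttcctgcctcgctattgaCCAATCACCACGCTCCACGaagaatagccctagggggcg
Pdia6 (chr12:17266471-17266529, plus strand, 98 bases before the start, outside annotated genes): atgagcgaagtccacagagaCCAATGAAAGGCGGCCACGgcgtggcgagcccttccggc
Creld2 (chr15:88819500-88819558, plus strand, 126 bases before the start, outside annotated genes): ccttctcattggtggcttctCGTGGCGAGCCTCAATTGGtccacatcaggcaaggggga
Hspe1 (chr1:55088054-55088081, plus strand, 89 bases before the Hspe1 start, in a stretch that touches an exon of Hspd1): gtccgTTCTAGAACCTTCCGGAAggccc
Hsph1 (chr5:149636283-149636305, minus strand, in a stretch that touches an exon of the gene): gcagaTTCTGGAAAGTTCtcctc
The Hspe1 stretch is also the heat shock match of Hspd1. The 2 genes are read in opposite directions from neighbouring starts, and their windows overlap. On the minus strand the stretch lies 144 bases before 1 of the 2 Hspd1 starts in RefSeq. It lies after the other start, where the GENCODE gene begins, and the window of that start holds no match.

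Levels are given as CPM over the cells of a library. A host ratio is the log2 of CPM in the MARCH1-/- host divided by CPM in the WT host, less the same value of the median gene, which was 0.25; a gene with 0 moved like the median gene. Intervals are exact at 95%, treat UMIs as independent and cover counting error only, not mice, libraries or cells. A member is called past the fold when its relative value lies beyond 1.5-fold either way. The middle 50% of all genes lay between -0.37 and 0.34.

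The reticulum members summed to 3651 CPM in the MARCH1-/- host and 2983 CPM in the WT host, a relative log2 value of 0.04 (-0.01 to 0.09), so as a sum they moved with the median gene. Of 24 reticulum members with at least 50 UMIs, 1 was past the fold and higher in the MARCH1-/- host (Sdf2l1), where 12.6% of all genes were. Another 5 were past the fold and lower (Dnajb9, Sel1l, Xbp1, Ern1 and Asns), where 15.1% of all genes were. The median of the 24 was -0.05. The cytosolic members summed to 5732 CPM in the MARCH1-/- host and 4230.2 CPM in the WT host, a relative value of 0.19 (0.15 to 0.23). Of 9 measured, 0 were past the fold and higher and 1 was past it and lower (Hsph1), with a median of 0.20. The cytosolic sum rested on Hspa8 and Hsp90ab1: without them it was 1617 CPM in the MARCH1-/- host and 1434 CPM in the WT host, a relative value of -0.08, which without subtraction of the median gene was 0.17. The 2 matrix members summed to 651 CPM in the MARCH1-/- host and 679 CPM in the WT host, a relative value of -0.31 (-0.42 to -0.20).

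**Figure D1:**
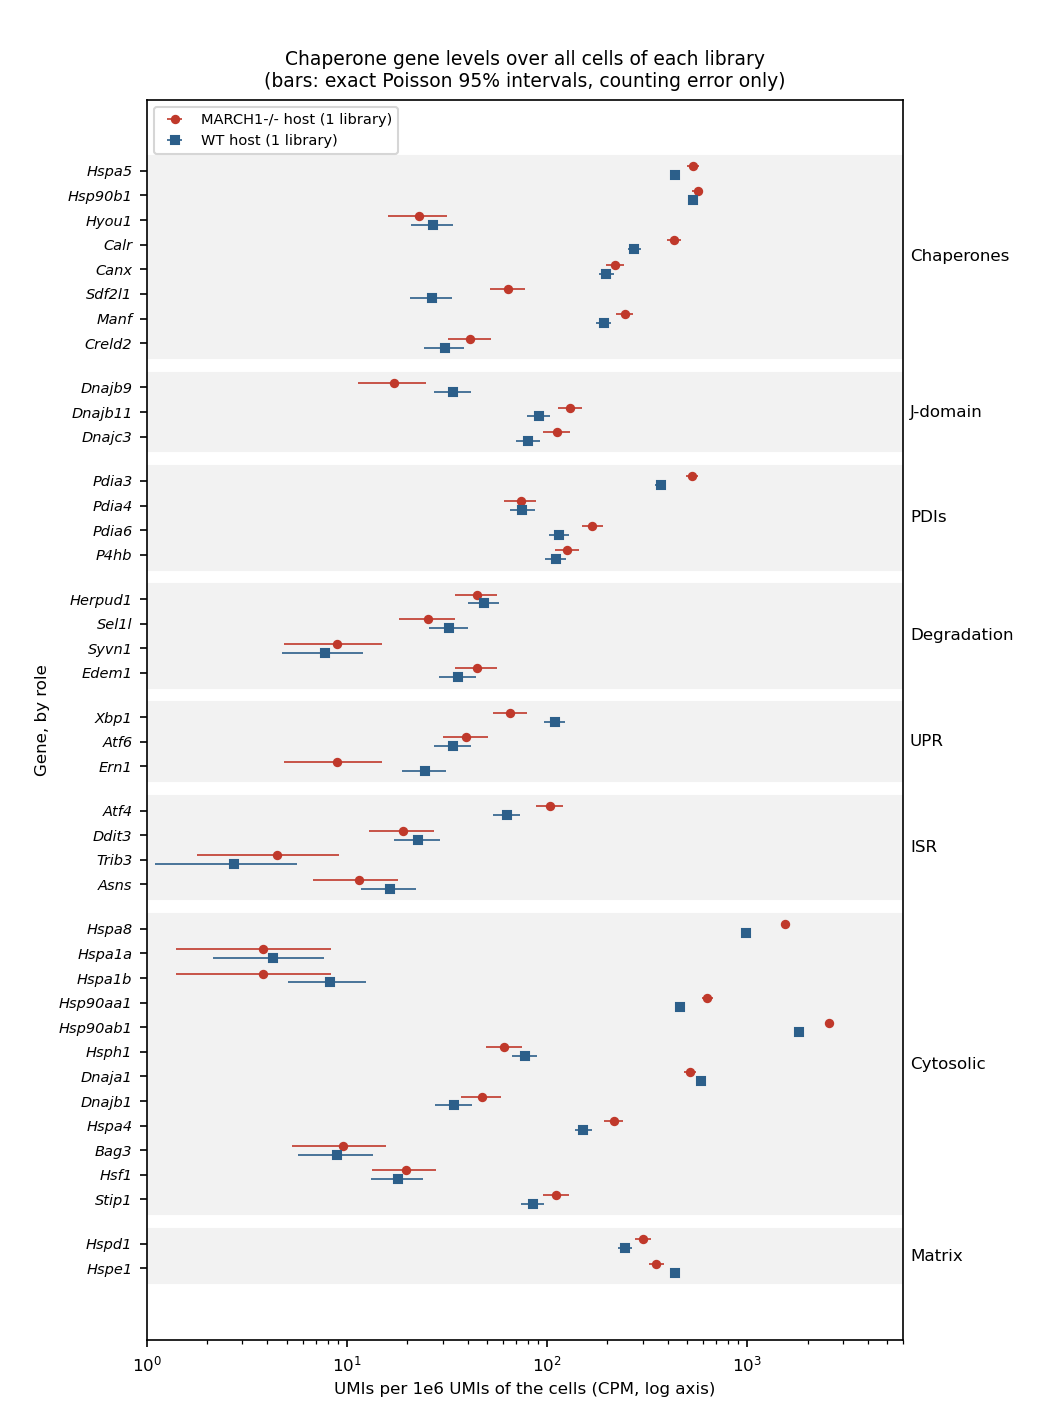
Each point is the level of one member over all cells of a library in CPM on a log axis, with exact Poisson 95% intervals, MARCH1-/- host (156 cells) above WT host (352 cells), genes grouped by role. Xbp1 and Ern1 lie lower in the MARCH1-/- host, at 65.4 and 8.89 CPM against 109 and 24.5 CPM in the WT host, while Hspa8 and Hsp90ab1 lie higher, at 1548 and 2567 CPM against 981 and 1816 CPM.

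Among the reticulum chaperones, which hold client proteins during folding, Calr and Sdf2l1 had the highest values. Hspa5, which encodes BiP, had 535 CPM in the MARCH1-/- host and 435 CPM in the WT host, a relative value of 0.05 (-0.08 to 0.18). Hsp90b1, the Hsp90 of the reticulum (GRP94), had 565 and 533 CPM, a relative value of -0.17 (-0.29 to -0.04) that without subtraction was above 0, at 0.08. Calr, the soluble lectin chaperone calreticulin, was higher in the MARCH1-/- host, at 431 CPM against 272 CPM in the WT host (0.41, 0.26 to 0.57), whereas its membrane-bound counterpart Canx had 219 and 198 CPM (-0.10, -0.31 to 0.10). Sdf2l1, a stress-inducible partner of BiP, had 63.5 CPM in the MARCH1-/- host and 26.4 CPM in the WT host, from 100 and 68 UMIs, and its relative value of 1.01 (0.55 to 1.48) was the highest of the 35 members. Cycling cells held 85 of its UMIs in the MARCH1-/- host and 43 in the WT host. With each cell thinned to 1000 UMIs, 3 UMIs remained in the MARCH1-/- host and 7 in the WT host, and the value was -0.22. The remaining chaperones had intervals that include 0. The secreted stress factor Manf had 244 CPM in the MARCH1-/- host and 192 CPM in the WT host (0.09). Creld2, another stress-inducible reticulum protein, had 41.3 and 30.7 CPM (0.17). Hyou1, the large Hsp70 relative GRP170, had 22.8 and 26.8 CPM (-0.48, -1.11 to 0.12).

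The partners of BiP did not move as a block. Dnajb9 (ERdj4), a J-domain protein that also holds IRE1 inactive, had 17.1 CPM in the MARCH1-/- host and 33.8 CPM in the WT host, from 27 and 87 UMIs, a relative value of -1.23 (-1.91 to -0.60). Dnajb11 (ERdj3) had 131 and 90.6 CPM (0.28). Dnajc3 (p58IPK), which restrains PERK, had 112 and 80.5 CPM (0.22). The disulfide isomerases, which form and rearrange disulfide bonds, summed to 895 CPM in the MARCH1-/- host and 668 CPM in the WT host (0.17, 0.07 to 0.27). Within them Pdia3, the partner of the lectin chaperones, had 527 CPM in the MARCH1-/- host and 369 CPM in the WT host (0.26, 0.13 to 0.40). Pdia6 had 168 and 114 CPM (0.30, 0.06 to 0.55). None of the 4 was past the fold, and the other members lay below the median gene with intervals that include 0. P4hb had 126 and 110.1 CPM (-0.06, -0.33 to 0.21; without subtraction 0.19). Pdia4 had 73.6 and 75.1 CPM (-0.28, -0.62 to 0.06).

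The genes of degradation from the reticulum had low counts. Herpud1, a scaffold of the retrotranslocation complex, had 44.4 CPM in the MARCH1-/- host and 48.2 CPM in the WT host (-0.37, -0.81 to 0.06). Edem1, which marks glycoproteins for removal, had 44.4 and 35.8 CPM (0.06). Sel1l, the adaptor of the ubiquitin ligase encoded by Syvn1, had 25.4 and 32.3 CPM (-0.60, -1.18 to -0.04).

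Both measured genes of the IRE1 branch of the unfolded protein response were past the fold and lower in the MARCH1-/- host. Xbp1, the factor activated by IRE1, had 65.4 CPM (53.4 to 79.3) in the MARCH1-/- host and 109 CPM (96.9 to 123) in the WT host, from 103 and 281 UMIs, a relative value of -0.99 (-1.33 to -0.66). Ern1, which encodes IRE1, had 8.89 CPM (4.86 to 14.9) in the MARCH1-/- host and 24.5 CPM (18.8 to 31.4) in the WT host, from 14 and 63 UMIs, the lowest relative value of the 35 (-1.72, -2.67 to -0.86). Atf6, the sensor of the second branch, had 39.4 and 33.8 CPM (-0.03, -0.53 to 0.45). Counts of 3′ ends do not separate spliced from unspliced Xbp1, so they say nothing of IRE1 activity. Type 2 cytokine transcripts were also lower in the MARCH1-/- host: Il13 had 331 CPM in the MARCH1-/- host and 786 CPM in the WT host, Il4 71.7 and 185 CPM, and Il5 16.5 and 146 CPM. Their part in the Xbp1 value was not tested, and its values within cytokine classes are given further on. Barcodes under 100 UMIs, which hold cell-free RNA, had Xbp1 at 36.7 CPM in the MARCH1-/- host library and 87.6 CPM in the WT host library.

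Of the integrated stress response, Atf4, its central transcription factor, was higher in the MARCH1-/- host, at 103 CPM against 62.6 CPM in the WT host (0.47, 0.15 to 0.80), from 163 and 161 UMIs. Its measured targets in this group, Ddit3 and Asns, lay below the median gene, with intervals that include 0. Ddit3, which encodes CHOP, had 19.0 and 22.6 CPM (-0.50, -1.18 to 0.16). Asns, asparagine synthetase, had 11.4 and 16.3 CPM (-0.77, -1.65 to 0.06). Few cells carried these counts, since 1 cell held 26.7% of the Ddit3 UMIs and 1 held 33.3% of the Asns UMIs in the MARCH1-/- host.

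Of the 9 cytosolic members, 6 lay above the median gene and 3 below it. Hsp90ab1, the constitutive cytosolic Hsp90, had 2567 CPM in the MARCH1-/- host and 1816 CPM in the WT host (0.25, 0.19 to 0.31). Hspa8, the constitutive Hsp70, had 1548 and 981 CPM (0.41, 0.33 to 0.49). These are the most counted of the 40 members. Hsp90aa1, the inducible Hsp90, had 630.2 CPM in the MARCH1-/- host and 459 CPM in the WT host (0.21, 0.08 to 0.33). Hspa4, a nucleotide exchange factor of Hsp70, had 215 and 152 CPM (0.25, 0.03 to 0.46). For the next pair the intervals include 0. Stip1, which joins Hsp70 to Hsp90, had 111 and 84.8 CPM (0.14), but -1.49 after thinning to 1000 UMIs, from 5 and 28 UMIs. The J-domain protein Dnajb1 had 47.0 and 34.2 CPM (0.20). Below the median gene lay Dnaja1, a J-domain partner of Hspa8, with 516 CPM in the MARCH1-/- host and 587 CPM in the WT host (-0.44, -0.56 to -0.31). Hsph1 (Hsp105), another exchange factor, had 60.9 and 77.4 CPM (-0.60, -0.96 to -0.24). Hsf1, the heat shock factor itself, had 19.7 and 17.9 CPM (-0.11). The stress-induced Hsp70 genes Hspa1a and Hspa1b were near absent, at 3.81 CPM each in the MARCH1-/- host and at 4.28 and 8.17 CPM in the WT host. Hspa1a and Hspa1b have near-identical coding sequences, but the last 500 bases of their transcripts, where 3′ reads fall, share 0 stretches of 50 bases with other annotated genes. For other members they do share 50-base stretches with other annotated genes (68.6% of the stretches for Hspa8, 53.2% for Hspe1, 39.1% for Dnaja1, 29.8% for Hspd1 and 24.7% for Hsp90aa1), so their counts are uncertain.

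In the mitochondrial matrix, the chaperonin Hspd1 (Hsp60) had 300.2 CPM in the MARCH1-/- host and 244 CPM in the WT host (0.05, -0.13 to 0.22), while its co-chaperonin Hspe1 (Hsp10) had 351 and 434 CPM (-0.56, -0.71 to -0.41). The 2 genes thus differed in their host ratio, although the stretch printed above lies in a promoter window of both. In barcodes under 100 UMIs Hspe1 was at 294 CPM in the MARCH1-/- host library and 536 CPM in the WT host library, and Hspd1 at 343 and 202 CPM.

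The host contrast was repeated within the 3 classes, because the libraries held different shares of them. Xbp1 was lower in the MARCH1-/- host in each class. Its level was 74.8 CPM against 143 CPM in the WT host among cytokine-positive non-cycling cells (-1.12, -1.86 to -0.44). It was 47.1 against 80.5 CPM among cytokine-negative non-cycling cells (-0.99, -1.82 to -0.22), and 70.1 against 111 CPM among cycling cells (-0.90, -1.37 to -0.44). Atf4 was above the median gene in all 3, at 0.65, 0.64 and 0.34 in the same order, with intervals that include 0 in each (lower ends -0.02, -0.04 and -0.13). Hspa8 was above it as well (0.22, 0.43 and 0.41), and Dnaja1 below it (-0.36, -0.31 and -0.39).

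The matrix chaperonins differed from class to class. Among cytokine-negative non-cycling cells Hspd1 had 102 CPM in the MARCH1-/- host and 200.1 CPM in the WT host (-1.18, -1.72 to -0.68), and Hspe1 207 and 381 CPM (-1.09, -1.47 to -0.74). Among cytokine-positive non-cycling cells Hspd1 had 167 and 258 CPM (-0.82, -1.31 to -0.36) and Hspe1 347 and 476 CPM (-0.64, -0.98 to -0.32). In cycling cells, by contrast, Hspd1 was higher in the MARCH1-/- host, at 428 CPM against 273 CPM in the WT host (0.42, 0.19 to 0.65), while Hspe1 had 414 and 453 CPM (-0.36, -0.56 to -0.16). The near-zero Hspd1 value over all cells was therefore made of classes that differed in sign, and the difference between classes was not tested.

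Hsph1 was past the fold and lower in both non-cycling classes (-1.07 in cytokine-positive and -1.08 in cytokine-negative cells, 14 UMIs each in the MARCH1-/- host), and in cycling cells its value was -0.31 (-0.80 to 0.17). Calr was past the fold in cycling cells only, at 514 CPM in the MARCH1-/- host and 282 CPM in the WT host (0.63, 0.41 to 0.85), with -0.08 in cytokine-positive and 0.24 in cytokine-negative cells; whether the classes differ was not tested. Hspa5 was at -0.47 (-0.77 to -0.17) in cytokine-positive, 0.34 (0.09 to 0.59) in cytokine-negative and 0.18 (-0.01 to 0.37) in cycling cells.

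By counts, 2 of 14 measured reticulum members were past the fold and higher in the MARCH1-/- host and 2 were lower among cytokine-positive cells, where 15.3% and 18.9% of all genes were. Among cytokine-negative cells 1 of 16 was higher and 3 were lower, with 15% and 18% of all genes. Among cycling cells 2 of 19 were higher (Calr and Sdf2l1) and 3 lower (Herpud1, Sel1l and Xbp1), with 14.2% and 16.7% of all genes. No cytosolic member was past the fold and higher in any class; the lower ones were Hsph1 and Stip1 in cytokine-positive cells and Hsph1 in cytokine-negative cells. The summed immediate early genes were higher in the MARCH1-/- host in each class, at 5101, 6425 and 3631 CPM against 3111, 2897 and 2146 CPM in the WT host for cytokine-positive, cytokine-negative and cycling cells, and their part in these values was not tested.

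**Figure D2:**
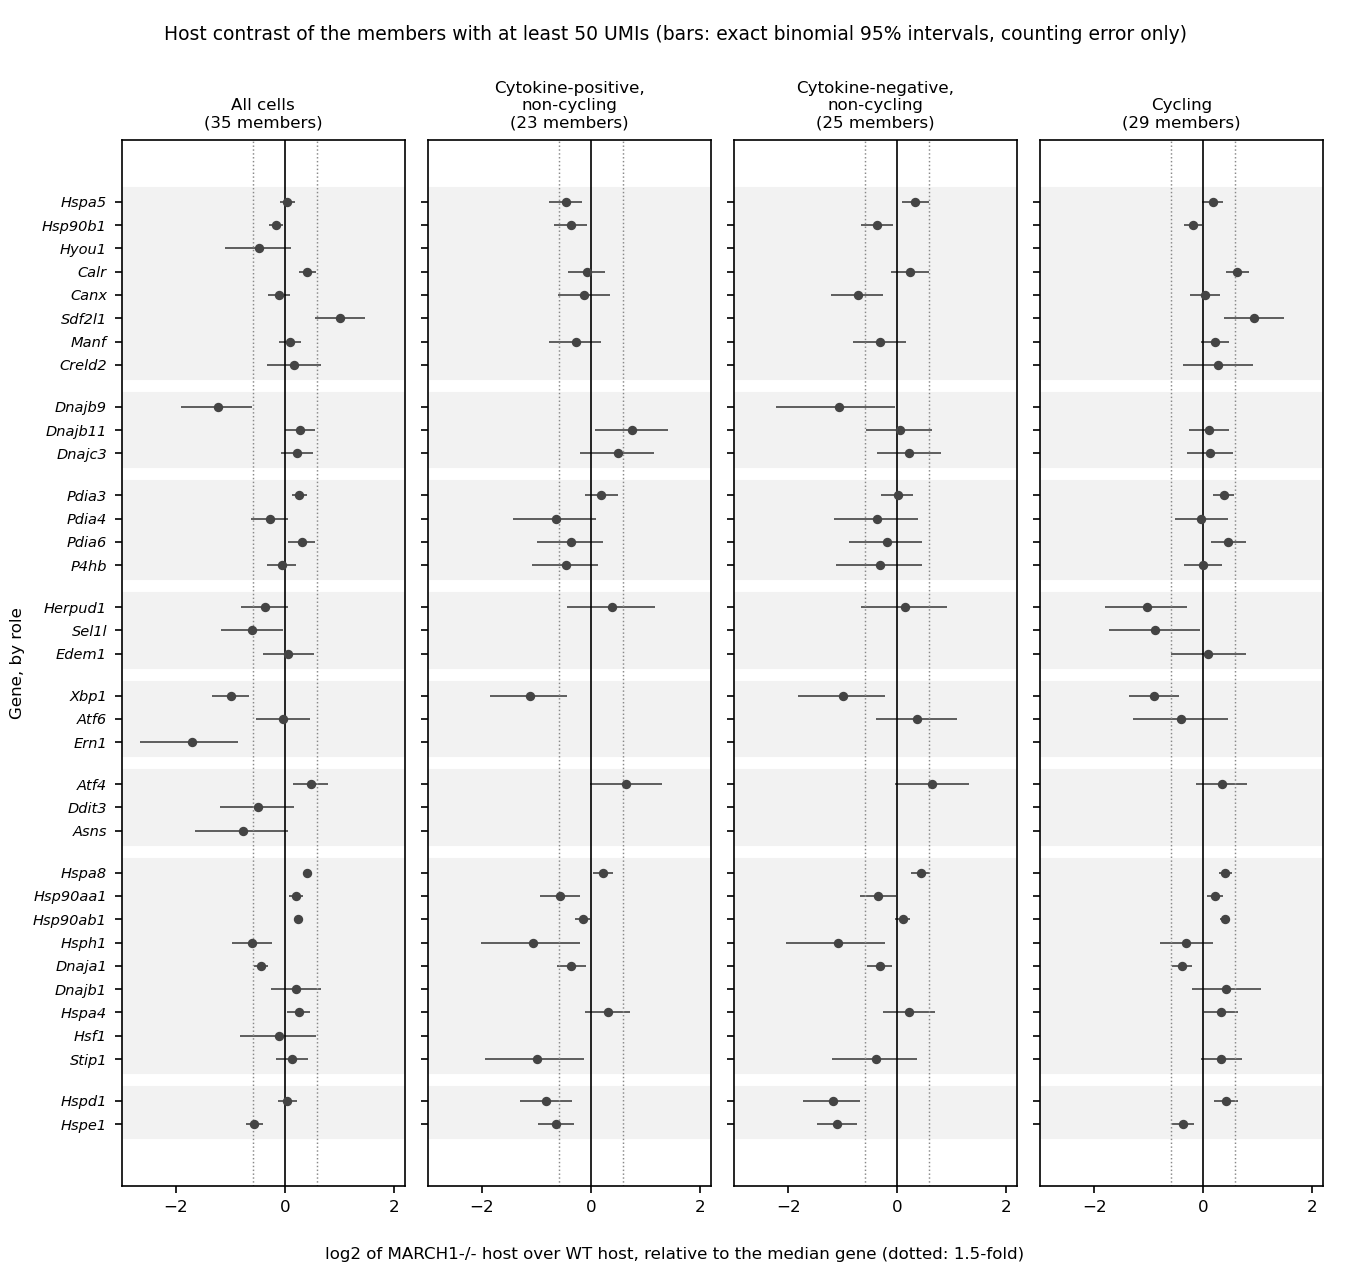
Each point is the log2 ratio of MARCH1-/- host over WT host CPM of one member relative to the median gene, with exact binomial 95% intervals, for members with at least 50 UMIs in all cells (35) and in the 3 classes (23, 25 and 29); dotted lines mark 1.5-fold. Xbp1 lies left of 0 in all 4 panels, and Hspd1 lies left of 0 in both non-cycling panels and right of it in cycling cells.

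Cytokine-positive were next compared with cytokine-negative non-cycling cells, in each library on its own. Both chaperone sums were higher in cytokine-positive cells. The reticulum members summed to 3150 CPM in cytokine-positive and 2759 CPM in cytokine-negative cells of the MARCH1-/- host (0.21, 0.08 to 0.33), and to 3168 and 2488 CPM in the WT host (0.35, 0.27 to 0.44). The cytosolic members summed to 4754 and 4239 CPM in the MARCH1-/- host (0.18, 0.08 to 0.28) and to 4523 and 3493 CPM in the WT host (0.38, 0.30 to 0.45). Of 18 members with at least 50 UMIs in each library, 13 lay above the median gene in both libraries, where 34.1% of all genes did, and 0 lay below it in both, where 33.1% did. Past the fold and higher in both were P4hb and Hspa4, 2 of 18, where 3.08% of all genes were; 0 were lower in both, where 4.73% were. Taken alone, the MARCH1-/- host library had 4 of 18 measured members past the fold and higher and 0 lower (9.35% and 11.4% of all genes), and the WT host library 6 of 27 higher and 2 lower (7.96% and 10.1%). Cytokine-positive cells were deeper, with medians of 8479 UMIs against 5361 UMIs in cytokine-negative cells of the MARCH1-/- host and 6904.5 against 4510 UMIs in the WT host, and a deep cell is more likely to show a cytokine UMI. With classes set after thinning to 1000 UMIs, the reticulum value of the MARCH1-/- host was 0.099, and that of the WT host 0.30.

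Among the disulfide isomerases, Pdia3, Pdia6 and P4hb lay above the median gene in both libraries. Pdia4 was under 50 UMIs in the MARCH1-/- host. In the WT host it lay at 0.69, but at -0.16 with classes set after thinning to 1000 UMIs. P4hb, the classical protein disulfide isomerase, had 112 CPM in cytokine-positive and 54.9 CPM in cytokine-negative cells of the MARCH1-/- host (1.04, 0.21 to 1.91), and 136 and 58.7 CPM in the WT host (1.21, 0.71 to 1.74). Pdia6 followed with 0.58 (-0.19 to 1.35) in the MARCH1-/- host and 0.77 (0.29 to 1.25) in the WT host, and Pdia3 with 0.41 (0.07 to 0.75) and 0.24 (its interval reaching just below 0). All 4 isomerases summed to 799 and 567 CPM in the MARCH1-/- host (0.51, 0.23 to 0.78) and to 747 and 522 CPM in the WT host (0.52, 0.34 to 0.71).

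Among chaperones, Hspa5 took opposite sides in the 2 libraries. It had 425 CPM in cytokine-positive and 575 CPM in cytokine-negative cells of the MARCH1-/- host (-0.42, -0.75 to -0.10), from 125 and 220 UMIs, but 515 and 393 CPM in the WT host (0.39, 0.17 to 0.61), from 353 and 342 UMIs. Without the cell with the most Hspa5 UMIs on each side the WT host value was 0.19. Calr was above the median gene in both libraries (0.27, -0.13 to 0.67, in the MARCH1-/- host and 0.61, 0.32 to 0.89, in the WT host), as were Manf (0.47 and 0.46) and Hsp90b1 (0.26 and 0.29).

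Xbp1 had 74.8 CPM in cytokine-positive and 47.1 CPM in cytokine-negative cells of the MARCH1-/- host, from 22 and 18 UMIs, under the limit of 50, (0.68, -0.28 to 1.67), and 143 and 80.5 CPM in the WT host, from 98 and 70 UMIs (0.83, 0.38 to 1.30). Atf4 lay at 0.43 and 0.44, with intervals that include 0 in both libraries. The 2 members past the fold and lower in the WT host were Atf6, with 26.3 CPM in cytokine-positive and 47.1 CPM in cytokine-negative cells (-0.84, -1.73 to -0.01), and Dnajb9, with 27.7 and 47.1 CPM (-0.76, -1.63 to 0.06). Both were under 50 UMIs in the MARCH1-/- host. Canx (0.56 in the MARCH1-/- host and -0.02 in the WT host), Dnajb11 (0.35 and -0.32) and Dnajc3 (0.08 and -0.18) took opposite signs in the libraries, with intervals that include 0.

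Of the cytosolic members, Hspa4 had 285 CPM in cytokine-positive and 162 CPM in cytokine-negative cells of the MARCH1-/- host (0.83, 0.34 to 1.33), and 203 and 120 CPM in the WT host (0.77, 0.39 to 1.15). Hsp90ab1 was higher in cytokine-positive cells of both libraries, within the fold, at 0.28 (0.12 to 0.44) and 0.56 (0.45 to 0.67), while Dnaja1 stayed at the median gene (-0.06 and 0.00). The matrix chaperonins were higher as well: Hspd1 had 167 and 102 CPM in the MARCH1-/- host (0.72, 0.09 to 1.37) and 258 and 200.1 CPM in the WT host (0.37, 0.06 to 0.68), and Hspe1 lay at 0.76 (0.32 to 1.20) and 0.33 (0.10 to 0.55).

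In the WT host, 1 cytokine-positive cell of 39526 UMIs, against 14004 UMIs in the next, held 5.77% of that class's UMIs, 238 cytokine UMIs, and 12.1% of its reticulum and 12.8% of its cytosolic UMIs. Without the deepest cell on each side the WT host values were 0.24 for the reticulum and 0.30 for the cytosolic sum, P4hb was at 0.94, and Hspa4, at 0.54, was no longer past the fold.

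Cycling cells were compared with all non-cycling cells in the same way, and both chaperone sums were higher in cycling cells of both libraries. The reticulum members summed to 4194 CPM in cycling and 2929 CPM in non-cycling cells of the MARCH1-/- host (0.58, 0.50 to 0.65), and to 3281 and 2788 CPM in the WT host (0.32, 0.25 to 0.39). The cytosolic members summed to 6687 and 4463 CPM in the MARCH1-/- host (0.64, 0.58 to 0.70) and to 4663 and 3947 CPM in the WT host (0.33, 0.27 to 0.38). Of 28 members measured in both libraries, 7 were past the fold and higher in both, where 12.1% of all genes were, namely Hsp90b1, Sdf2l1, Creld2, Pdia6, P4hb, Hsp90aa1 and Stip1, and 0 were lower in both, where 7.87% of all genes were. Above the median gene in both libraries lay 22 of 28, where 39.6% of all genes did, and below it in both lay 3 (Herpud1, Atf6 and Dnaja1), where 37.7% did. Taken alone, the MARCH1-/- host library had 15 of 28 members past the fold and higher and 2 lower (20.6% and 18.7% of all genes), and the WT host library 8 of 33 higher and 1 lower (15.9% and 14.5%). Cycling cells held medians of 15038 UMIs in the MARCH1-/- host and 11384 UMIs in the WT host, against 6298 and 5075 UMIs in non-cycling cells. Among cycling cells, the Spearman correlation of the reticulum share with the cell cycle share was -0.13 in the MARCH1-/- host and -0.35 in the WT host. For the cytosolic share it was -0.28 and -0.31.

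Sdf2l1 had the highest value of the 28 members in both libraries. It had 94.6 CPM in cycling and 22.2 CPM in non-cycling cells of the MARCH1-/- host (2.15, 1.35 to 3.05), from 85 and 15 UMIs, and 42.3 and 16.1 CPM in the WT host (1.48, 0.74 to 2.25), from 43 and 25 UMIs. Creld2 had 54.5 and 23.6 CPM in the MARCH1-/- host (1.26, 0.42 to 2.18) and 38.4 and 25.7 CPM in the WT host (0.66, with an interval that reaches just below 0). Hsp90b1 had 694 and 393 CPM in the MARCH1-/- host (0.88, 0.67 to 1.09) and 671 and 443 CPM in the WT host (0.69, 0.53 to 0.84). Hspa5, the Hsp70 that works beside Hsp90b1, did not follow, at 554 and 509.8 CPM in the MARCH1-/- host (0.18, -0.02 to 0.38) and 417 and 447 CPM in the WT host (-0.02, -0.19 to 0.16), although both promoters hold the element printed above.

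Pdia6 was higher in cycling cells, at 226 CPM against 91.6 CPM in non-cycling cells of the MARCH1-/- host (1.36, 0.94 to 1.79) and 140 against 97.8 CPM in the WT host (0.60, 0.26 to 0.94). P4hb showed the same at 1.06 (0.60 to 1.54) and 0.65 (0.30 to 0.99). The measured genes of the unfolded protein response and integrated stress response groups were not past the fold and higher in either library. The stress-inducible chaperones Sdf2l1 and Creld2, given above, were past it in both. Xbp1 lay at 0.30 (-0.29 to 0.91) in the MARCH1-/- host and 0.13 (-0.23 to 0.48) in the WT host, and Atf4 at 0.02 and 0.32. Herpud1 lay at -1.29 (-2.07 to -0.55) in the MARCH1-/- host and -0.01 in the WT host. Atf6 lay at -1.21 (-2.04 to -0.43) and -0.38 (-1.08 to 0.29).

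Among cytosolic members, Hsp90aa1 and Stip1 were past the fold in both libraries. Hsp90aa1 had 893 CPM in cycling and 281 CPM in non-cycling cells of the MARCH1-/- host (1.73) and 651 and 333 CPM in the WT host (1.05). Its adaptor Stip1 had 156 and 51.7 CPM in the MARCH1-/- host (1.65, 1.10 to 2.23, and 0.28 with classes set after thinning) and 105 and 71.4 CPM in the WT host (0.64, 0.25 to 1.04). Hsp90ab1 lay at 0.70 (0.61 to 0.80) and 0.27 (0.18 to 0.35), and Hspa8 at 0.48 (0.36 to 0.60) and 0.40 (0.28 to 0.51). Hspa4, past the fold in the cytokine contrast, lay at 0.04 and -0.03.

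The matrix chaperonin had unlike values in the 2 libraries. Hspd1 had 428 CPM in cycling and 130.05 CPM in non-cycling cells of the MARCH1-/- host (1.78, 1.44 to 2.13), and 273 and 226 CPM in the WT host (0.36, 0.12 to 0.59). Hspe1 lay at 0.69 (0.43 to 0.95) in the MARCH1-/- host and 0.18 (0.01 to 0.36) in the WT host. With 1 library per host the difference between libraries was not tested, and it rests on the same class values as the host contrast above.

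**Figure D3:**
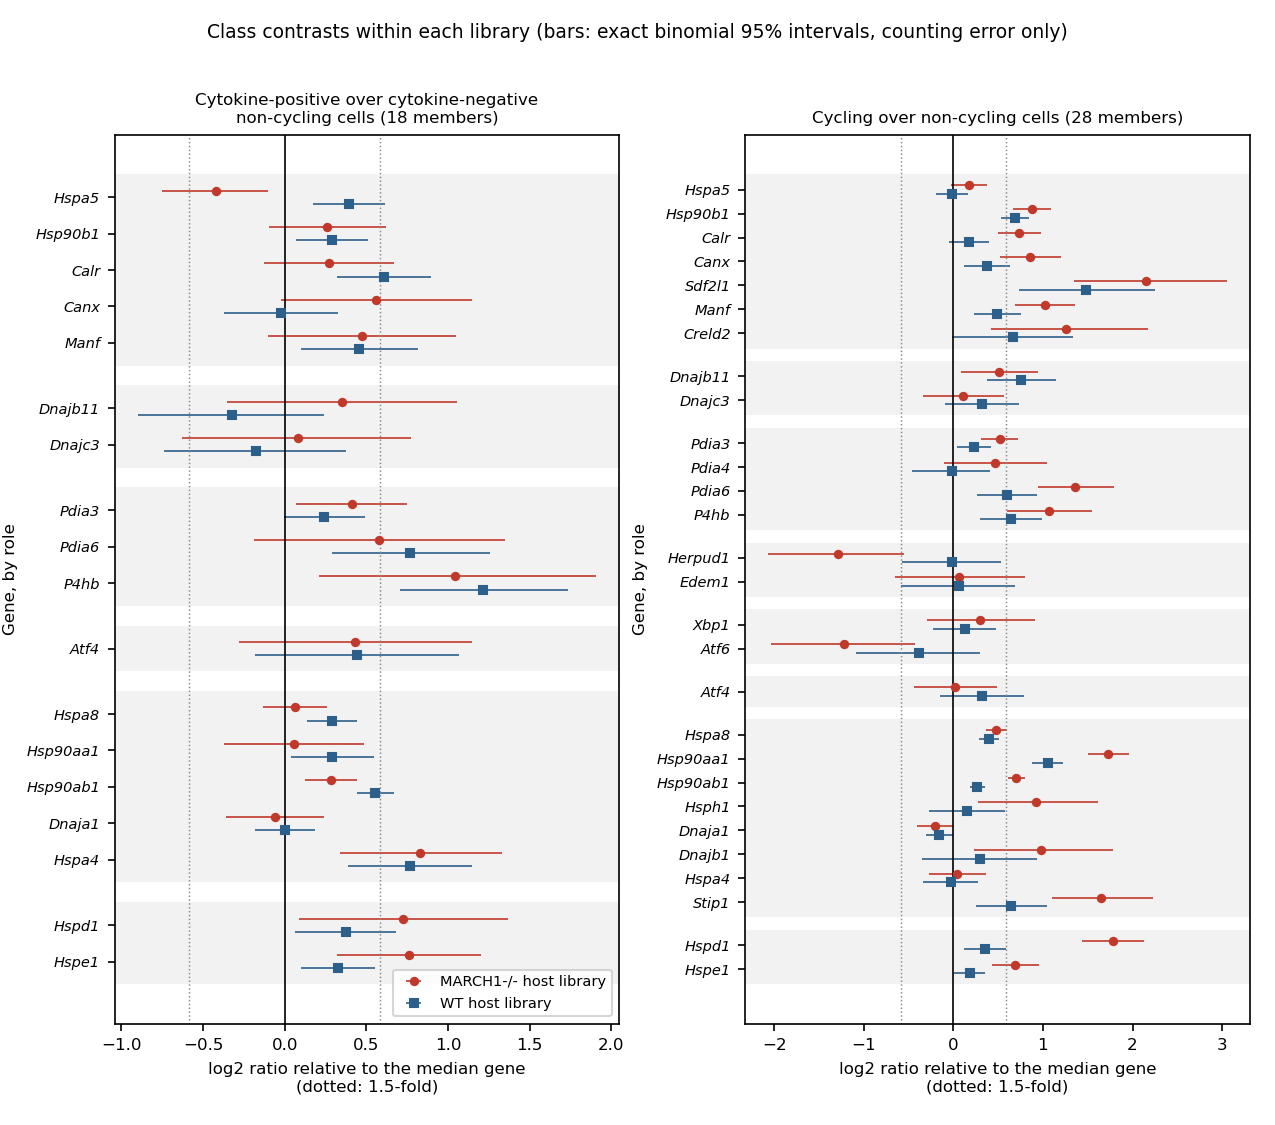
Each point is a log2 ratio relative to the median gene within one library, with exact binomial 95% intervals: on the left cytokine-positive over cytokine-negative non-cycling cells (18 members with at least 50 UMIs in both libraries), on the right cycling over non-cycling cells (28 members); dotted lines mark 1.5-fold. P4hb and Hspa4 lie right of the 1.5-fold line in both libraries on the left, Hspa5 lies on opposite sides of 0 there, and Sdf2l1, Hsp90aa1 and Stip1 lie right of the line on the right.

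**Figure D4:**
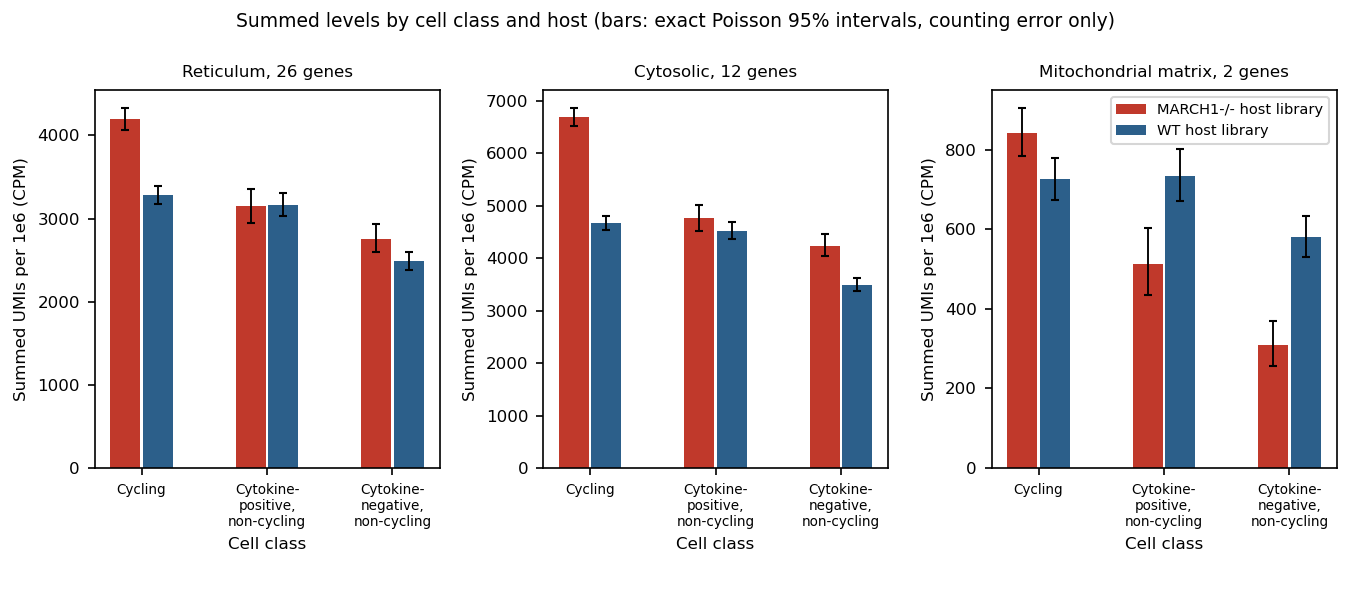
Bars give the summed CPM of the 26 reticulum, 12 cytosolic and 2 matrix members in 3 cell classes, MARCH1-/- host left of WT host, with exact Poisson 95% intervals and axes from 0. The cytosolic sum is highest in cycling cells of the MARCH1-/- host at 6687 CPM, against 4663 CPM in the WT host, and the matrix sum of cytokine-negative cells is 309 CPM in the MARCH1-/- host against 581 CPM in the WT host.

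Within cycling cells, cytokine-positive cells (23 in the MARCH1-/- host and 41 in the WT host) were set beside cytokine-negative ones (30 and 43). The reticulum sum was at the median gene, at 4281 CPM in cytokine-positive and 4122 CPM in cytokine-negative cells of the MARCH1-/- host (0.08, -0.01 to 0.17) and 3280.2 and 3282 CPM in the WT host (-0.05, -0.15 to 0.05). The cytosolic sum lay above it, at 0.27 (0.20 to 0.35) and 0.23 (0.14 to 0.31). Hspa4 was again past the fold and higher in both libraries, at 0.65 (0.23 to 1.08) and 0.94 (0.42 to 1.48), the only one of 22 measured members, where 2.68% of all genes were; 0 were lower in both, where 2.01% were. Above the median gene in both lay 11 of 22, where 28.8% of all genes did, and below it in both 1 (Canx), where 29.2% did. Taken alone, the MARCH1-/- host library had 2 of 24 members past the fold and higher and 1 lower (7.27% and 8.17% of all genes), and the WT host library 3 of 22 higher and 2 lower (11.7% and 7.77%). Hspd1 and Hspe1 were above the median gene in both libraries (0.33 and 0.49 in the MARCH1-/- host, 0.63 and 0.43 in the WT host). Xbp1 lay at -0.22 in the MARCH1-/- host and at 0.93 in the WT host, from 26 and 37 UMIs and from 79 and 34 UMIs.

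Reticulum and cytosolic members varied together from cell to cell, as a description over cells that share a library and differ in depth. The Spearman correlation of the 2 summed shares was 0.43 over the 156 cells of the MARCH1-/- host and 0.36 over the 352 cells of the WT host. Over the same cells both shares were also correlated with the cell's total UMIs, the cytosolic share at 0.49 and 0.28 and the reticulum share at 0.35 and 0.15. With the cell cycle share the correlation was 0.38 and 0.16 for the cytosolic share and 0.37 and 0.25 for the reticulum share. In cycling cells alone the correlation of the 2 shares was 0.61 over 53 cells and 0.33 over 84 cells. In cytokine-positive non-cycling cells it was 0.10 over 34 cells and 0.33 over 96 cells. In cytokine-negative non-cycling cells, the largest class, it was 0.21 over 69 cells and 0.27 over 172 cells.

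Reticulum members with and without the promoter element were set side by side in the host contrast. Of the 9 measured members with either form of the element, 0 were past the fold in either direction, and their values ran from -0.37 to 0.41 with a median of 0.17. Of the 12 measured reticulum members whose window held neither form, 1 was higher and 5 were lower, and their values ran from -1.72 to 1.01 with a median of -0.39. Of all genes 12.6% were higher and 15.1% lower. The members also differ in counts, and so in counting error. With the element, Hspa5 and Hsp90b1 had 843 and 890 UMIs in the MARCH1-/- host, and Creld2 had 65. Without it, Ern1 and Asns had 14 and 18 UMIs there, and Pdia3 had 831. The part of the counts in the spread of values, and the difference between the groups, was not tested. In the cycling contrast the medians were 0.74 in the MARCH1-/- host and 0.38 in the WT host with the element, and 0.47 and 0.13 without it. In the cytokine contrast of non-cycling cells the order was the reverse. There the medians were 0.27 in the MARCH1-/- host and 0.22 in the WT host with the element, from 7 and 8 measured members. Without it they were 0.43 and 0.44, from 3 and 7 measured members.

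Further genes of the same compartments, listed by name, were counted in the same way. Of 60 further reticulum genes, 48 had at least 50 UMIs; 9 were past the fold and higher in the MARCH1-/- host and 6 lower, where 12.6% and 15.1% of all genes were, with a median of 0.01. The most counted were the translocon subunits Sec61g, with 472 CPM in the MARCH1-/- host and 1012 CPM in the WT host (-1.35, -1.47 to -1.23), and Sec61b, with 575 and 851 CPM (-0.82, -0.93 to -0.70), and the prolyl isomerase Ppib, with 527 and 271 CPM (0.71, 0.56 to 0.86). Of 36 further heat shock and folding genes, 31 were measured; 4 were higher and 4 lower, near the 12.6% and 15.1% of all genes, with a median of 0.11. The most counted of the 31 included St13, an Hsp70 partner, which was past the fold and lower, with 191 and 397.5 CPM (-1.31). Within the fold lay the J-domain protein Dnajb6, with 255 and 289 CPM (-0.44), and the chaperonin subunit Cct2, with 302 and 249.3 CPM (0.03, -0.15 to 0.20).

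In cytokine-positive against cytokine-negative cells, Ssr2, a translocon-associated subunit, was the only one of 22 further reticulum genes past the fold and higher in both libraries (0.72 in the MARCH1-/- host and 0.75 in the WT host), and 0 of 18 further heat shock genes were, where 3.08% of all genes were. In cycling against non-cycling cells, those past the fold and higher in both libraries among 42 further reticulum genes included Ssr2, Fkbp2 and Kdelr2, and Sdf2 was lower; Fkbp2, a prolyl isomerase of the reticulum, lay at 1.60 (1.06 to 2.17) and 1.18 (0.85 to 1.52). Of 25 further heat shock genes, 4 were higher in both (Hspa14, Dnajc2, Cct7 and Fkbp4) and 0 lower, where 12.1% and 7.87% of all genes were, a share near the background. Fkbp4, an Hsp90 co-chaperone, lay at 1.32 (0.74 to 1.93) and 0.81 (0.23 to 1.39). Genes given as past the fold in both libraries were named after their values were seen.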

How the data were processed

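The deposited matrix of each library gives raw UMI counts by gene and barcode, which the authors had not normalized. Per the labels' protocols, libraries were made with the 10x 3′ kit (v3.1). The submitters' processing notes name Cell Ranger 3.1.0 and mm10, but the file headers carry version 4; which applies, and which annotation, is not stated. Doublets were kept; Scrublet calls (scanpy 1.11.5, expected rate 0.05; 5 cells in each library) were left out as an alternative. UMIs were summed over cells, scaled to CPM and compared as log2 ratios less the median over genes with at least 50 UMIs, with exact conditional binomial 95% intervals (scipy 1.17.1, numpy 2.4.6, pandas 2.3.3, Python 3.11.15; figures with matplotlib 3.10.9); the script was tested on simulated data. Library totals were 1934068 UMIs in the MARCH1-/- host (81.5% in cells) and 3753437 in the WT host (68.5%). Thinning to 1000 UMIs kept 156 and 341 cells. Ddit3 has 2 entries in the gene table, of which the one with UMIs was used. In the host contrast every member with at least 50 UMIs is given with values, and in the others those the comparison turns on; further genes are the most counted of each list. Members and lists were chosen with earlier results of these data known. Gene positions are from GENCODE M21 (GRCm38).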

Additional observations from a re-analysis of the deposited data

Results flagged for a closer look

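In cytokine-positive against cytokine-negative non-cycling cells, Hspa5 lay on opposite sides of the median gene in the 2 libraries, with intervals that exclude 0 on both sides: -0.42 in the MARCH1-/- host and 0.39 in the WT host. Without the cell with the most Hspa5 UMIs on each side, these values were -0.50 and 0.19. The difference between the libraries was not tested. In cycling cells the same contrast gave -0.14 (-0.41 to 0.12) in the MARCH1-/- host and 0.22 (-0.07 to 0.51) in the WT host.

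Barcodes over the mitochondrial limit, which entered no comparison, carried chaperone transcripts in other proportions than the cells. Their reticulum members summed to 4257 CPM (3549 to 5066) in the 25 barcodes of the MARCH1-/- host library and 5706 CPM (5187 to 6264) in the 72 barcodes of the WT host library. Their cytosolic members summed to 2715 CPM (2156 to 3375) in the MARCH1-/- host library and 2931 CPM (2562 to 3338) in the WT host library. The reticulum sum was thus above the cytosolic sum in these barcodes, and below it in the cells of both libraries; no control sample exists for them, and a count of 0 would allow 101 CPM in the MARCH1-/- host library and 38.7 CPM in the WT host library.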

How the results depend on the processing

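Values are log2 ratios relative to the median gene, and the cause of each shift was not tested. In the host contrast the reticulum value of 0.04 was 0.29 without subtraction of the median gene and -0.034 with cells weighted equally, so its direction depended on the weighting; the cytosolic value of 0.19 was 0.44, 0.13 with equal weights and 0.089 after thinning to 1000 UMIs. Sdf2l1 turned to -0.22 after thinning, from 3 and 7 UMIs, Stip1 (0.14) to -1.49, and Pdia4 in the cytokine contrast of the WT host (0.69) turned to -0.16 with classes set after thinning. In the cytokine contrast the cytosolic value of the MARCH1-/- host (0.18) was 0.35 with classes set after thinning, and the reticulum value (0.21) was 0.099. In the WT host the reticulum value (0.35) was 0.25 with equal weights and 0.24 without the deepest cell of each side, and the cytosolic value (0.38) was 0.28 with equal weights, 0.48 with at least 3 cytokine UMIs, 0.46 with cycling from 5 per 1000, and 0.30 without the deepest cell or the cell with the most listed UMIs. In the cycling contrast of the MARCH1-/- host the reticulum value (0.58) was 0.43 with cycling from 5 per 1000 and 0.68 with no filter on low genes, and the cytosolic value (0.64) was 0.48, 0.75, 0.54 with equal weights and 0.46 after thinning. In the WT host the reticulum value (0.32) was 0.24 without subtraction and 0.22 with cycling from 5 per 1000, and the cytosolic value (0.33) was 0.24, 0.21 and, after thinning, 0.26. Leaving out single cells was chosen after seeing the data. No paired analysis was possible because each host has 1 library. With 1 library per host, mice, libraries and hosts cannot be told apart, and members under 50 UMIs were too thinly counted to compare.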

Other observations

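Chaperone sums in barcodes under 100 UMIs, which hold mostly cell-free RNA, were 2477 CPM for the reticulum members in the MARCH1-/- host library and 2142 CPM in the WT host library, and 4529 and 3980 CPM for the cytosolic members. The cytosolic sum was the larger in both libraries there, as in the cells.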
